A study of Caenorhabditis elegans with 2 samples.

Results

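SNPC-1.1 was found by ChIP-seq at 237 peaks beside nuclear tRNA genes, out of 1500 reproducible peaks in all, of which 1473 were nuclear. The protein is related to a component of SNAPc, the complex that activates small nuclear RNA (snRNA) genes. A peak was counted here when its summit lay within 500 bp of the first base of an annotated nuclear tRNA gene, and no signal value entered that choice. The 237 peaks lay near 264 of the 612 nuclear tRNA genes: 203 peaks had 1 tRNA gene in the window, 32 had 2 and 2 had 3. Regions in the list can overlap, and the peaks had 234 distinct nearest genes, 3 of which were nearest to 2 peaks.

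The single group of samples was whole young adult hermaphrodites of Caenorhabditis elegans strain YL482, a stable transgenic line that expresses SNPC-1.1 (gene C06A8.2) with GFP and FLAG at its C terminus. Chromatin was sonicated and precipitated with an antibody against GFP. There were 2 biological replicates, both from this 1 line, and no second genotype, stage or treatment. The material holds all tissues together, so binding in fewer cells and less binding per cell cannot be told apart. A possible control named by the labels was not analysed here. With 1 group, no test between conditions was possible. The values below are counts, medians and exact 95% intervals (Clopper-Pearson), which cover counting error only, and neighbouring or identical genes are not independent.

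Transfer RNA genes are transcribed by RNA polymerase III. Their promoter lies mainly inside the gene, in box A and box B, which are bound by the factor TFIIIC. TFIIIC then places TFIIIB just upstream of the start, and a run of T ends transcription. SNAPc is known for another kind of promoter, that of snRNA genes, where it binds a proximal sequence element upstream of the start. The gene for the selenocysteine tRNA (tRNA-Sec), which reads a stop codon as selenocysteine, is a known exception in vertebrates: it has an upstream promoter like that of the U6 snRNA gene.

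The letters around the start are shown first for the tRNA gene for selenocysteine. Next comes the pair of U snRNA genes with the highest peaks among those matching the same spelling. Other tRNA genes with high peaks follow. U snRNA genes are here all annotated snRNA genes other than those of the spliced leaders SL1 and SL2. Each run covers 80 bases before and the first 10 bases of the gene, on build ce11, read in the direction of the gene from the RefSeq genome. Capitals mark AACC and, 7 to 9 bases away, GTCG or GTCC. For C06B8.t1 the match is on the opposite strand, so the capitals are its reverse complement. TATAA is also in capitals in K11H12.t1. ZK1067.t1 has a high peak and no match and is shown for contrast.
K11H12.t1: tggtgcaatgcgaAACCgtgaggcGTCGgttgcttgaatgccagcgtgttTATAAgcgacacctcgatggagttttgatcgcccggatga
F42C5.12: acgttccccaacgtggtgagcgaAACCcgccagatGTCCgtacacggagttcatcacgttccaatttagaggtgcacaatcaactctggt
sup-6: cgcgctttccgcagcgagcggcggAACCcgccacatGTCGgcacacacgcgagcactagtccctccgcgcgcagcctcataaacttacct
ZC412.t1: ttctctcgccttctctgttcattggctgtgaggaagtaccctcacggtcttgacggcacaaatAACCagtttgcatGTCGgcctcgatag
Y37A1B.t1: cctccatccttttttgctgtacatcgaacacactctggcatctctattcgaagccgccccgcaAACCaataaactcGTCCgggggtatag
C06B8.t1: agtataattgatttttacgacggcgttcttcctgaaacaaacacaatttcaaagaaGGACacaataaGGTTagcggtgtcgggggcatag
Y105C5A.t2: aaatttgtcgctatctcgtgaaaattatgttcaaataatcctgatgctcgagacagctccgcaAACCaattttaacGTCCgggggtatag
ZK1067.t1: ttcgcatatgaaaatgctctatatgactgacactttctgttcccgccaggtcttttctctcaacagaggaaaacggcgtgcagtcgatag

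K11H12.t1 is the tRNA-Sec gene (chrIV:658181-658266, plus strand, intronic to K11H12.8 on the same strand), and F42C5.12 (chrIV:7316732-7316853, plus strand) and sup-6 (chrII:12944803-12944967, minus strand) are annotated snRNA genes. In K11H12.t1 the AACC lay at bases -67 to -64, the second part at -56 to -53 and TATAA at -30 to -26, counted from the first base of the gene as 1 and the base before it as -1. In F42C5.12 the parts lay at -57 to -54 and -45 to -42, and in sup-6 at -56 to -53 and -44 to -41. In the tRNA-Phe gene ZC412.t1 and in the tRNA-Ala genes Y37A1B.t1 and Y105C5A.t2 the parts lay at -17 to -14 and -4 to -1, so the element ended at the base before the gene. In the tRNA-Ala gene C06B8.t1, on the opposite strand, AACC lay at -13 to -10 and the second part at -24 to -21.

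**Figure D1:**
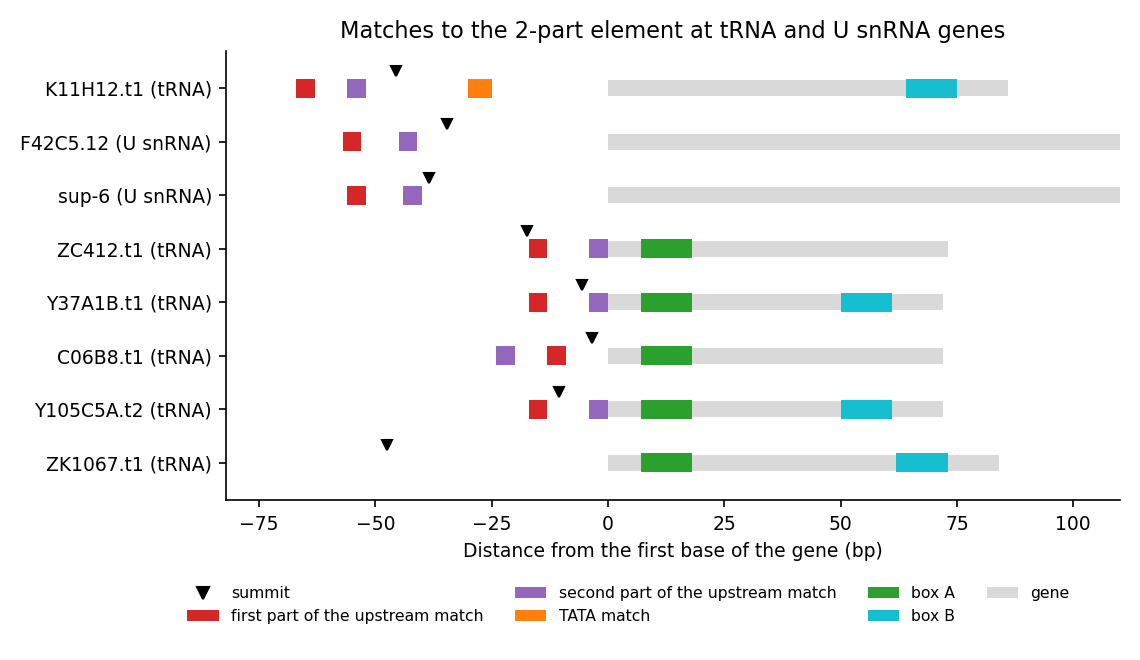
Matches to the 2-part element, TATAA in K11H12.t1, and box A and box B, drawn by distance in bp from the first base of the gene. Grey bars are genes (drawn to 110 bp) and triangles are summits; the matches lie at -67 to -53 in K11H12.t1 and at -17 to -1 in 3 of the other tRNA genes.

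The peak at K11H12.t1 had a signal of 645 and rank 80 of 1500. Signal is a score given by the authors for each region, on a scale that is not stated, so it is compared only within a list. Its signal was 257 (rank 90) in the list of replicate 1 and 407 (rank 76) in that of replicate 2, with summits 46 and 39 bp upstream of the gene. The pooled summit, 46 bp upstream, lay between the element and the gene. No start of another annotated gene lay within 500 bp of that summit. The 36-base words around the gene all occur once in the genome. K11H12.t1 has no match to the exact box A letters and holds box B at bases 65 to 75 of the gene.

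Over all 612 tRNA genes, the element with a gap of 7 to 9 bases was found on either strand in 10, or 1.63%. At 3 of the 10, C16H3.t1, H35N09.t1 and ZC412.t2, the match reached into the gene, so part of it was gene sequence. All 10 had a reproducible peak, beside 43.1% of all tRNA genes, and none of the 348 tRNA genes without a peak held the element. At R09E10.t1 and ZK563.t1 the region in replicate 1 ranked only 4195 and 19683, outside its 1500 highest. H35N09.t1 was counted through a summit nearer to its neighbour H35N09.t2, 86 bp upstream of H35N09.t1. The same windows held it at 23 of 99 U snRNA genes (23.2%), 9 of 18 SL2 genes (50%), 28 of 346 snoRNA genes (8.09%), 59 of 19973 protein-coding genes (0.295%) and 0.491% of all nuclear genes. The U snRNA count takes the annotation's classes as they are: it includes mir-1831, an entry of class snRNA that lies inside sup-39 and shares its peak. Of the tRNA genes nearest to the 10 highest tRNA peaks, 5 held it: ZC412.t1, Y37A1B.t1, K11H12.t1, C06B8.t1 and Y105C5A.t2. A sixth was ZC412.t2 (tRNA-Cys), with a signal of 277 and rank 172. The other 4 genes, R09E10.t1, C16H3.t1, ZK563.t1 and H35N09.t1, had signals of only 73.1 to 89.4.

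The spelling of this element was chosen after the sequences at the highest tRNA peaks and at U snRNA genes had been read, so these counts are a description of the same genes and no test of them was made. Other spellings gave other counts. Beside them, 43.1% of all tRNA genes and 59 of 99 U snRNA genes had a peak. The stricter form of AACC and GTCGG separated by 7 or 8 bases, searched in the 100 bases before the start, matched 1 tRNA gene, K11H12.t1, against 12 U snRNA genes, all with a peak. ACC and GTCGG separated by 6 to 9 bases matched 5 tRNA genes, 4 of them with a peak, and GTCGGT alone matched 11, of which 9 had a peak. Across the start, AACC or ACC followed 9 bases later by GTCGG or GTCCG matched 6 and 7 tRNA genes, all with a peak. Neither of these forms matched any U snRNA or SL2 gene. They matched 0 and 1 snoRNA genes, and 6 and 8 protein-coding genes. ACC with a gap of 7 to 10 bases matched 10 tRNA genes with GTCGG, 8 of them with a peak, and 64 with GTC, of which 36 had a peak. AACC alone matched 277 tRNA genes, 124 of them with a peak, which is close to the share over all tRNA genes. TATAA occurred on either strand before 47 of 264 tRNA genes with a peak (17.8%), 68 of 348 without one (19.5%) and 29.3% of all nuclear genes. A match is only a description of the letters, and no match says only that these letters are not in the window.

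The internal promoter is shown whole in Y37A1B.t1 (chrIV:14013805-14013876, minus strand, intergenic, tRNA-Ala with anticodon TGC), whose peak had a signal of 824 and rank 64. The run below starts 40 bases before the gene and ends 12 bases after it, with box A and box B in capitals.
Y37A1B.t1: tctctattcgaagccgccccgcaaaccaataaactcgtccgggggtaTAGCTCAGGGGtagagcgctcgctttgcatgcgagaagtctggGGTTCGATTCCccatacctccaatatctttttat

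In each tRNA gene or pseudogene, box B was searched as GGTTCGANNCC over the whole length. Box A was searched by an exact consensus in the first 30 bases. Both searches in these genes were on the strand of the gene. No match says only that these exact letters were not found, and not that the gene lacks the box. Box B was found in 178 of 264 tRNA genes with a peak (67.4%) and in 216 of 348 without one (62.1%). Box A was found in 58.3% of the genes with a peak and in 51.7% of those without one. Among the 209 tRNA pseudogenes, of which 2.39% had a peak, box A was found in 73.7% and box B in 64.6%. In the first 72 bases of protein-coding genes, box B was found in 0.015% and box A in 3.51%. A run of TTTT within 30 bases downstream followed 99.6% of the genes with a peak and 98.3% of those without, and 91.9% of the pseudogenes. Exact matches to both boxes were found in 217 genes, of which 107 had a peak (49.3%, interval 42.5 to 56.2%). Of the remaining 395 genes 157 had one (39.7%, interval 34.9 to 44.8%). The intervals of these groups overlap.

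Among nuclear tRNA genes, 264 of 612 had a reproducible summit within 500 bp (43.1%, interval 39.2 to 47.2%), while the share over all 46890 nuclear genes was 3.96%. In the 1500 highest regions of replicate 1, 226 tRNA genes had a summit (36.9%), beside 3.66% of all nuclear genes. In those of replicate 2, 272 tRNA genes had one (44.4%), beside 3.92% of all nuclear genes. Annotated tRNA pseudogenes, which have lost the ability to give a working tRNA, had a peak in 5 of 209 cases (2.39%, interval 0.781 to 5.49%).

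The tRNA peaks made up 16.1% of the nuclear reproducible peaks, and most were of middling signal. Their median signal was 83.8 (quartiles 68.7 and 106), and that of the other 1236 nuclear peaks was 84.5 (quartiles 68.8 and 124). Peaks at U snRNA genes had a median of 313 (n = 70), at snoRNA genes 150 (n = 99) and at SL2 genes 938 (n = 18). None of the 25 highest reproducible peaks was at a tRNA gene, 7 of the 100 highest were, and 28 of the 300 highest were. The lowest tRNA peak, near C15C6.t1 (tRNA-Arg), had a signal of 59.0 at rank 1496, with 30.7 in replicate 1 and 50.5 in replicate 2 from regions that also overlap the other peak near this gene. The next was at B0244.t1 (tRNA-Gly), with 59.1 and rank 1489, and 17 in replicate 1 and 55.6 in replicate 2, from regions that are also those of the neighbouring peak at B0244.t3. F14B8.t1 (tRNA-Leu) had 59.2 and rank 1483, with 18.5 in replicate 1 and 41.6 in replicate 2. Both ranked lower in replicate 1, at 3455 for B0244.t1 and 2836 for F14B8.t1, than in replicate 2, at 718 for B0244.t1 and 1270 for F14B8.t1. Just below the list, the highest pooled region at a tRNA gene without a reproducible peak was at K09A11.t1 (tRNA-Tyr), with 58.5 at rank 1508.

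The 10 highest tRNA peaks had signals of 444 to 1113, and the next had 337. Of these 10, only those at K11H12.t1, C06B8.t1 and F11H8.t1 had no other annotated start within 500 bp of the summit. For the others, the window alone does not settle to which start the peak belongs. C27A2.t1 (chrII:5057447-5057520, minus strand, tRNA-Ile, intronic to C27A2.12) had the highest, with a signal of 1113 and rank 44. Its list values were 515 in replicate 1 and 604 in replicate 2. ZC412.t1 (chrV:14876389-14876461, minus strand, tRNA-Phe, intronic to ZC412.10) had a signal of 1031, with 448 in replicate 1 and 595 in replicate 2. Y37A1B.t1 had 317 in replicate 1 and 538 in replicate 2. C06B8.t1 (tRNA-Ala, anticodon CGC, in an intron of nhr-150) had a signal of 586, ZK1067.t1 (tRNA-Tyr) 556 and Y105C5A.t2 (tRNA-Ala) 520.1. F11H8.t1 (tRNA-Thr, intergenic) had 452, and T19C4.t1 (tRNA-Leu, in an intron of gpa-1, which encodes a G protein subunit) had 444. Each of the 10 ranked between 40 and 123 in replicate 1 and between 44 and 120 in replicate 2. The 10 were chosen by the signal of both replicates together, so high ranks in each were largely fixed by the choice.

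M01E5.t1 (tRNA-Lys, chromosome I, intergenic) ranked second among tRNA peaks, with a signal of 1045. Its summit lay 83 bp upstream of the tRNA gene and 49 bp from the start of the SL2 gene sls-2.9, so the gene to which this peak belongs cannot be told apart. It was the only tRNA peak with an SL2 start in the window. For the 237 peaks as a whole, 162 had an annotated start of class ncRNA within 500 bp of the summit, 38 a protein-coding start, 17 a piRNA start and 1 a snoRNA start. For 63 peaks the tRNA gene was the only annotated start in the window; their median signal was 75.4 and their median summit position was 25 bp inside the gene.

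Most summits lay close to the gene. Of the 237 summits, 221 lay within 100 bp of the first base, and the median was 14 bp downstream of it (quartiles -16 and 50 bp). By place, 100 summits were upstream of the gene (42.2%), 117 within it (49.4%) and 20 downstream (8.44%). Among the bins of 50 bp, 92 summits fell in the 50 bp before the start and 76 in the first 50 bp of the gene. The farthest lay 446 bp upstream and 276 bp downstream. A window of 1000 bp held 248 peaks and one of 200 bp held 234.

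The highest peaks differed in place from the rest. Of the 10 highest tRNA peaks, 9 had the summit upstream of the gene, with a median of -16.5 bp, and of the other 227 peaks 91 did (40.1%), with a median of 16 bp. In each separate replicate list 9 of the 10 were also upstream, with F11H8.t1 the exception in replicate 1 and C06B8.t1, at 6 bp, in replicate 2. The reproducible list was made from these same replicates, so this is not a separate measurement. With the peaks ordered by signal and cut into 4 equal groups, 31 of 60 summits in the highest group were upstream and 2 downstream, while in the next to lowest group 17 of 59 were upstream and 11 downstream. The lowest group had 24 of 59 upstream, so the share did not fall steadily with signal. Peaks narrower than 320 bp, 15 in all, had a median position of -16 bp, and the other 222 regions were all 320 bp wide with a median of 16.5 bp. Width and signal moved together: the narrower peaks had a median signal of 520.1 and none under 192, and the 320 bp regions had a median of 81.2. Their part in the difference of place was not tested. The division at 10 peaks and the description by place were made with earlier results of these data known.

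**Figure D2:**
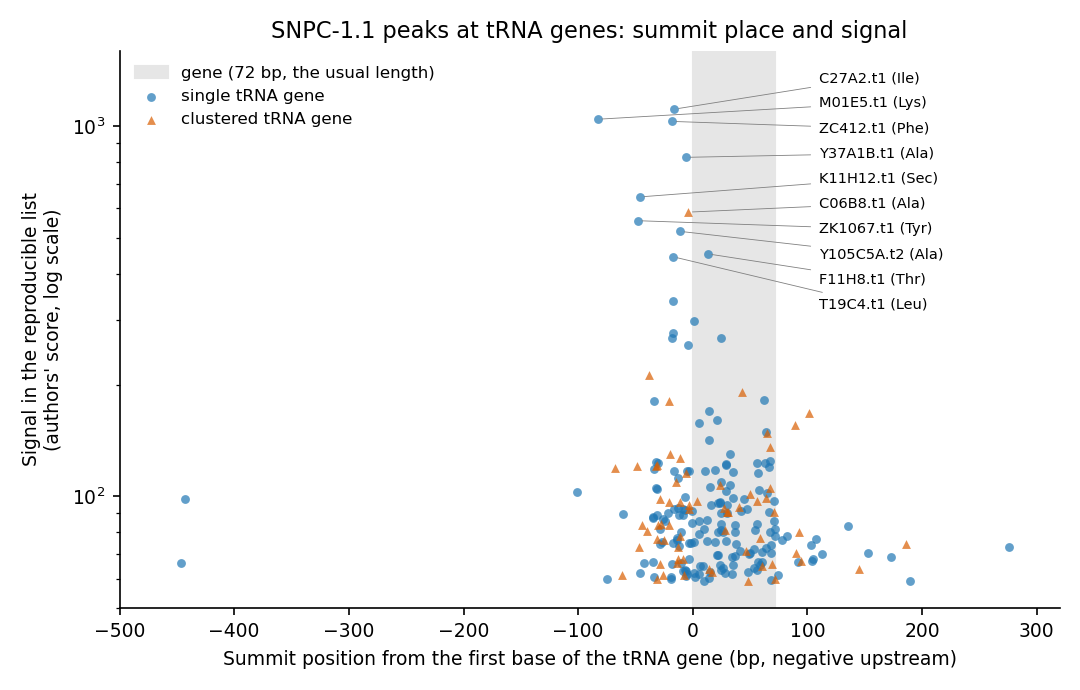
Each point is 1 of the 237 tRNA peaks, by summit position from the first base of its nearest tRNA gene (bp) and signal in the reproducible list (log scale), with circles for single and triangles for clustered genes. Of the 10 named highest peaks, 9 lie left of the gene, while 117 of all the summits lie within it.

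The replicate lists were compared at the same peaks. A region of each replicate list overlapped 234 of the 237 peaks by at least 1 bp. Of the 237, 169 were among the 1500 highest regions in replicate 1 (71.3%), 210 in replicate 2 (88.6%), 145 in both (61.2%) and 3 in neither. For the other nuclear peaks the shares were 77.2% in replicate 1, 83.6% in replicate 2 and 64% in both. The median rank of tRNA peaks was 927 in replicate 1 and 722 in replicate 2, and that of the other nuclear peaks was 734 in replicate 1 and 769 in replicate 2. Replicate 2 gave 153 of the tRNA peaks the better rank and replicate 1 gave 81. Across the 234 tRNA peaks found in both, the Spearman correlation of signal between the replicates was 0.41, and across 1230 other nuclear peaks it was 0.61. Peaks of 1 library share its depth and are not independent, so these correlations are descriptive. The reproducible peaks were the 1500 highest regions of the pooled list, so their presence in each replicate is not a separate measurement.

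**Figure D3:**
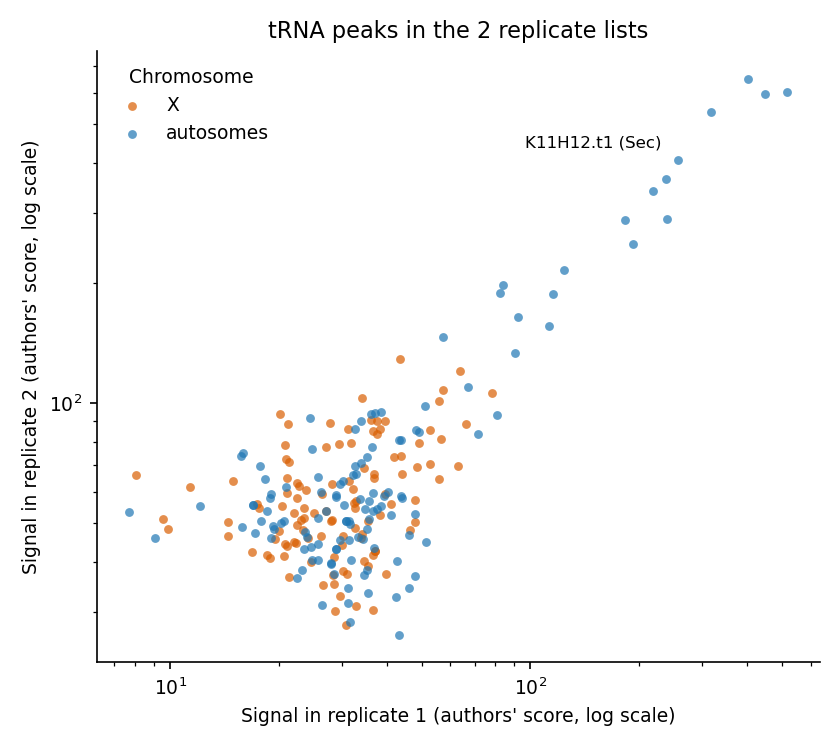
Signal of each tRNA peak in the list of replicate 1 (horizontal) and of replicate 2 (vertical), both as the authors' score on log scales, for the 234 peaks with a region in both. K11H12.t1 stands at 257 in replicate 1 and 407 in replicate 2, and no X peak (orange) reaches the values of the highest autosomal ones (blue).

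The median distance between the summits of the 2 replicate lists was 31 bp at tRNA peaks and 22 bp at the other nuclear peaks. For 73 of 234 tRNA peaks, the replicates put the summit on different sides of the first base, so the side of a single weak peak is uncertain.

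The share of genes with a peak was close in single and clustered tRNA genes, and its order depended on the list. A gene was called single when no other tRNA gene started within 1000 bp on either strand. Of 382 single genes 171 had a peak (44.8%, interval 39.7 to 49.9%), and of 230 clustered genes 93 did (40.4%, interval 34 to 47.1%), so the intervals overlap. In replicate 1 alone the order turned round, with 33.8% of single and 42.2% of clustered genes. In replicate 2 the shares were 45% and 43.5% for single and clustered genes. Counted by cluster, 52 of 98 clusters had at least 1 gene with a peak (53.1%), and in 34 of them every gene had one. Median peak signal was 81.8 at single and 87.3 at clustered genes.

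Clustered genes shared summits. Of 77 pairs with 2 genes, 31 had both genes near a summit, and in 24 of these a single peak served both. In the 37 divergent pairs, whose starts face away from each other at a median of 161 bp apart, 16 had both genes with a peak, 13 of them from 1 shared peak. Summits at clustered genes lay upstream in 34 of 64 peaks (53.1%), and at single genes in 66 of 173 (38.2%). The median position was 15 bp at single and -3.5 bp at clustered genes, and in each replicate it was also lower at clustered genes (15 and -3.5 bp in replicate 1, 14.5 and -5 bp in replicate 2, for single and clustered genes). A position is measured from the nearest gene alone, and a summit between 2 divergent genes is upstream of both.

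Intronic tRNA genes had a peak somewhat less often than intergenic ones, with overlapping intervals. A gene was intronic when it lay within a protein-coding gene and overlapped none of its exons. Of 283 intronic genes 115 had a peak (40.6%, interval 34.9 to 46.6%), and of 319 intergenic genes 146 did (45.8%, interval 40.2 to 51.4%). The intronic share was the lower one in both replicates, at 33.9% against 39.8% in replicate 1 and 38.9% against 49.8% in replicate 2. Of 10 genes that overlap an exon, 3 had a peak. Median signal was 81.4 at intronic peaks and 84.4 at intergenic ones, and median positions were 14 and 13 bp. By strand of the host gene, 41.6% of 161 genes on the same strand as the host and 39.3% of 122 on the opposite strand had a peak. Of the 10 highest tRNA peaks, 6 were intronic, including C27A2.t1, ZC412.t1 and K11H12.t1.

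Chromosome X holds 276 of the 612 tRNA genes. On X, 130 had a peak (47.1%, interval 41.1 to 53.2%), and on the autosomes 134 of 336 did (39.9%, interval 34.6 to 45.3%). X was higher in both replicates, at 40.9% against 33.6% in replicate 1 and 50.4% against 39.6% in replicate 2. Among the 750 highest reproducible peaks it was not, with 19.9% of X and 21.1% of autosomal tRNA genes. Among the single autosomes, chromosome I had the smallest share, 18 of 66 (27.3%), and III the largest, 29 of 64 (45.3%). This order did not hold in the replicate lists: III had 23.4% in replicate 1, the smallest of the autosomes, and 40.6% in replicate 2, while IV was the largest in both with 45.1%. Chromosome I had 30.3% in replicate 1 and 28.8% in replicate 2. The strongest tRNA peaks were autosomal. X held 114 of the 237 tRNA peaks (48.1%) but none of the 18 highest; its top peak was at C02D4.t1 (tRNA-Ile, in an intron of ser-2, which encodes a tyramine receptor), with a signal of 183 and rank 233. The median signal was 80.5 on X and 86.3 on the autosomes. The top peaks on the other chromosomes were those at M01E5.t1 on I, C27A2.t1 on II, F11H8.t1 on III, Y37A1B.t1 on IV and ZC412.t1 on V.

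**Figure D4:**
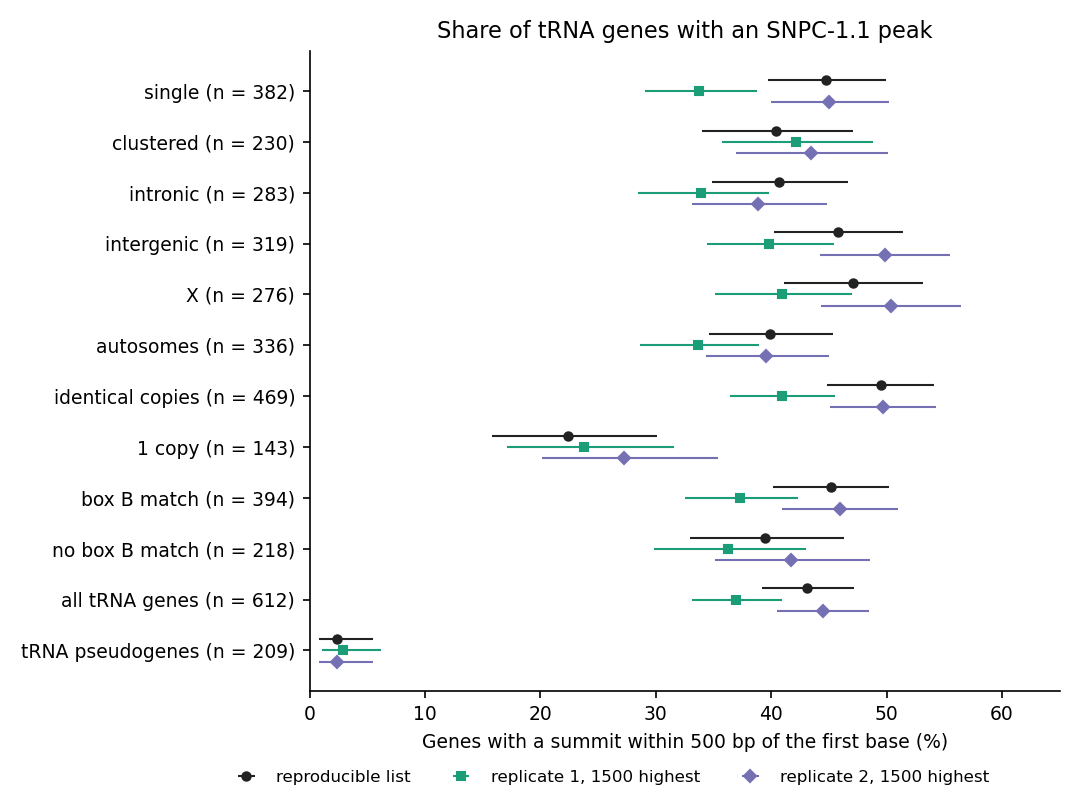
Percent of genes with a summit within 500 bp, in the reproducible list and in the 1500 highest regions of each replicate, with exact 95% intervals that cover counting error only. Most groups sit near the 43.1% of all tRNA genes, while genes with 1 copy (22.4%) and tRNA pseudogenes (2.39%) sit lower.

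Most tRNA genes belong to sets of identical copies, and the copies of a set did not all have a peak. The 612 genes include 57 sets of 2 or more genes of identical sequence, with 469 genes, of which 232 had a peak (49.5%, interval 44.9 to 54.1%). Of the 143 genes whose sequence occurs in 1 annotated tRNA gene only, 32 did (22.4%, interval 15.8 to 30.1%). Of the 57 sets, 47 held members with and members without a peak, 5 had a peak at every member and 5 at none. Among the 25 sets of 8 or more copies, the share ran from 27.3% to 100%.

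The set with a peak at all 8 copies encodes tRNA-Ala with anticodon TGC. It includes Y37A1B.t1 and Y105C5A.t2, and all 8 genes also had a summit in the 1500 highest regions of each replicate. B0491.t2 was counted in replicate 1 through the summit at its neighbour B0491.t1, since the region at its own peak ranked 1504 there. The largest set, 29 copies of tRNA-Gly with anticodon TCC, had a peak at 10. A set of 24 genes of tRNA-Pro with anticodon TGG had a peak at 11. From this set, T23F1.t2 (chrV:15465225-15465296, minus strand, intergenic) had the highest peak, with a signal of 168 and its summit 101 bp downstream of the start. R11G10.t2 (chrV:13507203-13507274, minus strand, in an intron of avr-15, which encodes a glutamate-gated chloride channel subunit) had no region in any list, which makes it the exception: 12 of the 13 genes of the set without a reproducible peak had a region in the pooled list. In that list, which includes background, 79.9% of all tRNA genes without a reproducible peak had a region. The peak at T23F1.t2 also has the tRNA gene T23F1.t1 and a protein-coding start in its window. The pair is thus the extreme of the set and not typical of it. They are shown with 40 bases before and 12 after the gene, because their 72 bases are identical and the flanks differ. Neither the exact box A nor the exact box B letters are in this sequence.
T23F1.t2: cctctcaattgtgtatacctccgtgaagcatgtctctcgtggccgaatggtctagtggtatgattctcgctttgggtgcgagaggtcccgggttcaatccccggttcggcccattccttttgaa
R11G10.t2: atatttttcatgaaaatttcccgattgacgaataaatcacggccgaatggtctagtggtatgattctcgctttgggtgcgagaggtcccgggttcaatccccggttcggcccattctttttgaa

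Reads from identical genes cannot be placed within the gene itself, and how the authors treated such reads is not given in the sources used here. For 473 of the 612 genes, no 36-base word of the gene body occurs once in the genome. Over the gene and 150 bp on each side, the median share of such words was 0.855 at genes with a peak and 0.855 at genes without one. Of the 17 genes where under 0.5 of these words occur once, 2 had a peak (11.8%), and of the 37 between 0.5 and 0.75, 7 did (18.9%). Of the 98 genes above 0.9, 24 had one (24.5%). The share with a peak was highest, at 50.2%, in the 460 genes between 0.75 and 0.9. The median share of such words was 0.849 at identical copies and 0.929 at genes with 1 copy. These bins are therefore not separate from the copy groups above.

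By amino acid, the share of genes with a peak ran from 30% for His and Met (6 of 20 each) to 64.7% for Thr (22 of 34), leaving out the lone tRNA-Sec gene. Ala (21 of 34, 61.8%), Lys (26 of 46, 56.5%) and Asp (15 of 27, 55.6%) followed Thr. Ser (12 of 39, 30.8%) and Tyr (6 of 19, 31.6%) were near the low end. With 12 to 55 genes for each amino acid, the intervals are wide: that for Thr was 46.5 to 80.3% and that for Ser 17 to 47.6%, which overlap. The order at the top depended on the list. Ala was above Thr in both replicates, with 61.8% for Ala and 44.1% for Thr in replicate 1, and 67.6% for Ala and 61.8% for Thr in replicate 2. Ser had 17.9% in replicate 1, the lowest of the named amino acids there, and 41% in replicate 2. Ala had the highest median signal after Sec, at 116. None of the 5 tRNA genes of undetermined type had a peak. By anticodon, which could be read for 566 genes, AGT (Thr) had 13 of 17 and GCT (Ser) 1 of 9, and none of 6 AGG (Pro) genes had one in the reproducible list. In the 1500 highest regions of each replicate, 2 of the 6 AGG genes did. These anticodons were chosen after their values were seen.

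**Figure D5:**
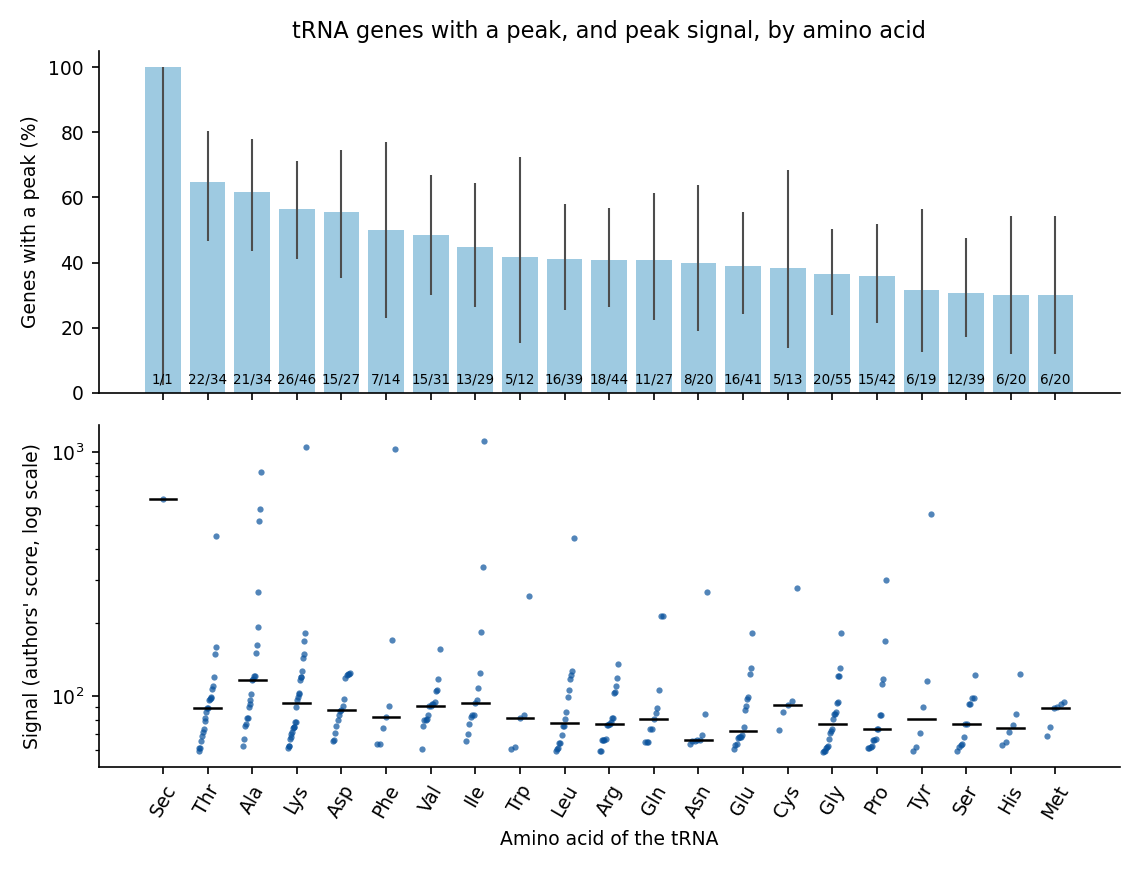
Upper panel: percent of the tRNA genes of each amino acid with a peak, with exact 95% intervals and counts. Lower panel: signal of the peak nearest to each such gene (log scale), with the median as a bar; Sec stands at 645 and the Ala median at 116.

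The highest peaks of the remaining amino acids were at K12H4.t1 for Pro (298), ZK507.t1 for Asn (267), Y4C6B.t2 for Trp (256), F08G5.t3 for Gln (213) and M02F4.t1 for Gly (181). Lower ones were at R04D3.t2 for Val (156), F08G5.t1 for Arg (136), F25F6.t1 for Glu (130) and F59C12.t2 for Asp (124). Each peak is given here to its nearest tRNA gene only. The peak at M02F4.t1 also has a tRNA-Glu gene in its window, so counted by gene the Glu maximum was 181. The lowest of these maxima were at C06G1.t1 for His (123), R03E1.t1 for Ser (121) and F14B6.t2 for Met (94.7). Met was thus the amino acid whose strongest peak was weakest. The annotation gives both kinds of methionine tRNA the same name. The set of 9 identical genes that begin with A, a feature of initiator tRNA, had a peak at 3, and so did a set of 9 that begin with G, the elongator kind. This division was made from the sequence. The initiator genes with a peak were F14B6.t2, F14B6.t1 with a signal of 92.5, and T15B12.t1 with 68.7.

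Tryptophan tRNA genes are known in worms as the source of amber suppressors, since mutation of their anticodon lets them read a stop codon. Of 12 such genes, 5 had a peak (41.7%). Y4C6B.t2 was the strongest, with 92.7 in replicate 1 and 165 in replicate 2. rtw-5 had a signal of 83.6, sup-5 81.4, sup-24 62 and sup-7 60.6. sup-5 lies in an intron of fli-1 on chromosome III, and its summit was 29 bp upstream. The suppressor genes sup-21, sup-28, sup-29 and sup-33 had no reproducible peak, nor did rtw-6, Y95B8A.t1 and F49C5.t1. Of the suppressor genes, sup-28 and sup-33 had pooled regions close below the list, at ranks 1740 and 1810, while sup-29 and sup-21 had regions at ranks 10614 and 15331. sup-34 was not found under that name in the annotation used here.

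A lack of a reproducible peak did not mean a lack of any region. Of the 348 tRNA genes without one, 278 had a region in the pooled list within 500 bp (79.9%), with a median rank of 2924, against 773 for the genes with a peak. For tRNA pseudogenes 73 of 209 had a pooled region (34.9%), at a median rank of 12841. The list that holds 30000 regions includes background by the authors' description, so a low-ranked region is not a called peak. The share of all nuclear genes with a region in this list was not counted. The 79.9% therefore has no such share beside it and is not a measure of weak binding. Next after K09A11.t1 among genes without a reproducible peak came C05G6.t1 (tRNA-Val, rank 1509) and rte-2 (tRNA-Glu, rank 1522). The number of genes with a peak therefore turns on where the list ends: 39 of the 612 had no region in any of the lists.

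Protein-coding genes that serve tRNAs are a separate matter. The share of protein-coding genes with a summit within 500 bp was 4.2%. None of 20 annotated aminoacyl-tRNA synthetase genes, which charge tRNAs with amino acids, had one (upper bound 16.8%). Of 16 genes for RNA polymerase III and its factors, 2 did: rpac-19, a subunit shared by RNA polymerases I and III, with a signal of 108 at -100 bp, and rpb-12, a subunit shared by all the polymerases, with 95.3 at -267 bp. Of 13 genes for tRNA processing and export, 1 did: ssb-1, with 61.1 at -407 bp, which is the worm homologue of the La protein that binds the U-rich end of polymerase III transcripts. The exact interval was 1.55 to 38.3% for the polymerase III list and 0.195 to 36% for the processing list, and both hold the share of all protein-coding genes. These lists were chosen with earlier results of these data known.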

How the data were processed

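The deposited values are lists of genomic regions on build ce11 (and ce10, not used here), and each region has a signal value, which is the authors' own score, with no scale named. Per the deposited text files, each replicate list and the pooled list came from alignments together with a control, and hold peaks and background (26195 to 30000 regions); from these the authors kept the peaks that passed an irreproducible discovery rate threshold. No aligner, peak caller, handling of repeated reads or read depth was found in the labels or files (not given in the sources used here), so depth per sample is unknown and the number of regions limits precision.

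Summits were placed by the offset deposited for each region, in coordinates counted from 1; at most tRNA peaks this was the middle of a region 320 bp wide. Gene positions were taken from Ensembl (release 115, WBcel235, the assembly also called ce11), and sequence, amino acids and pseudogene status from the matching RefSeq assembly. Replicate values are those of the overlapping region (by 1 bp or more) of highest signal for a peak, and of the highest region with a summit within 500 bp for a gene without one. Anticodons were read from the stem and the loop of 7 bases. Analyses used Python 3.11.15, pandas 2.3.3, numpy 2.4.6 and scipy 1.17.1. Alternatives were windows of 200 and 1000 bp, the 750 highest peaks, the region midpoint as summit, other cluster distances, each replicate alone and, added after the data were seen, other spellings of the upstream element. The assignment of summits to genes was tested on simulated data.

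Genes were named by rule: the 10 highest tRNA peaks, the highest in each group, chromosome and amino acid, the lowest peaks, the Sec, initiator Met and Trp genes, and the 3 best genes below the list. The other genes with the 2-part element, the anticodons singled out and M01E5.t1's neighbour were chosen after their values were seen. The members, gene lists and comparisons were all chosen with earlier results of these data known.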

Additional observations from a re-analysis of the deposited data

How the results depend on the processing

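No paired analysis was possible because there was only 1 group. Of 66 values from alternatives, 43 stayed within the limits set for each result and 23 did not. The region midpoint could change little, since only 164 of the 1500 reproducible summits lay off the middle of their region. The values it left unchanged therefore add little to the 43. With the 750 highest peaks only, 114 tRNA peaks remained, their median signal was 109 and the median summit position over genes was 0 bp, against 10.5 bp as reported. The percent of genes with a peak was then 20.6 for all tRNA genes, 21.5 for single, 19.1 for clustered, 18.7 for intronic, 22.6 for intergenic, 19.9 for X and 21.1 for autosomal ones; fewer peaks were counted by construction. With a window of 1000 bp, the percent was 47.2 for all and 50.4 for clustered genes, and the median position 9 bp. With the region midpoint as summit the median position was 8.5 bp. With all regions of each replicate list counted, 234 of the peaks were in both, against 145 of the 1500 highest. Using 1 replicate alone, the median position ran from 6 to 7 bp, the tRNA peak count from 192 to 242, and the percent of genes with a peak from 36.9 to 44.4 for all, 33.8 to 45.0 for single, 42.2 to 43.5 for clustered, 33.9 to 38.9 for intronic, 39.8 to 49.8 for intergenic, 40.9 to 50.4 for X and 33.6 to 39.6 for autosomal genes; the lower count and percents came without replicate 2, and the lower position without replicate 1. The cause of these changes was not tested. The single minus clustered difference, 4.33 percentage points as reported, was -5.15 points with the 1000 bp window and -8.40 without replicate 2. The X minus autosomes difference, 7.22 points as reported, was -1.20 with the 750 highest peaks. The intronic share stayed below the intergenic one in the settings tried for both. Medians of signal were not compared between lists, whose scales differ, and without read totals no limit of detection can be set.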

Other observations

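A peak lay near 5 of 209 tRNA pseudogenes (2.39%), beside 3.96% of all nuclear genes. The 5 were F19H8.t1 on chromosome II, Y69A2AR.t1, Y69A2AR.t3 and D1046.t1 on chromosome IV, and ZK380.t2 on chromosome X. Their signals were 94.9 at F19H8.t1, 68.0 at Y69A2AR.t1, 83.1 at Y69A2AR.t3, 90.8 at D1046.t1 and 74.2 at ZK380.t2, close to the median of tRNA peaks. All 5 lay more than 10 kb from any annotated tRNA gene, the nearest being 13898 bp away at ZK380.t2. Other annotated starts near the summits were not counted. The summits lay at -38 to 203 bp from the first base of the pseudogene, and the words around each of the 5 all occur once in the genome. They were chosen after their values were seen.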
